A study of Mus musculus with 26 samples.

Results

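The genes described here encode voltage-gated sodium channels of brain: the pore-forming alpha subunits *Scn1a*, *Scn2a1*, *Scn3a* and *Scn8a* and the accessory beta subunits *Scn2b*, *Scn3b* and *Scn4b*. These 7 genes were chosen by symbol, and the deposited tables of mouse striatum list 5 of the 7, each by 1 transcript: *Scn2a1* (uc012bwh.1), *Scn3a* (uc012bwa.1), *Scn8a* (uc007xsf.1), *Scn2b* (uc009pfg.1) and *Scn3b* (uc009ozi.1). *Scn1a* and *Scn4b* are not listed and were not analysed here. The 5 transcripts stand among 8576 transcripts in each of the tables of transgenic mice and 9561 in the table of knockout mice. The study compared ribosome footprints, the mRNA fragments that ribosomes protect from nuclease, with total RNA (RNA-Seq) to ask how the kinase LRRK2, whose G2019S variant is linked to Parkinson's disease, affects translation in mouse brain. Of its 26 samples, all from C57BL/6 mice aged 3 months by the labels, the 2 from ventral midbrain were not analysed here. Each sample analysed here was a pool of caudate putamen from 3 mice of mixed sex.

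GS LRRK2 TG mice (GS TG below) carried a G2019S LRRK2 transgene, and GS/DA LRRK2 TG mice (GS/DA TG below) carried G2019S/D1994A LRRK2, in which the added change removes kinase activity. Both transgenes came from lines with many copies and were driven through the CaMKII-tTA promoter of forebrain neurons, held off by doxycycline chow until weaning and expressed afterwards. Non-TG control mice, labelled wild-type, served both comparisons, so these comparisons share control samples. LRRK2 KO mice lacked the gene and were compared with WT mice of a separate cohort. The labels list 2 footprinting and 2 RNA-Seq libraries for each transgenic genotype, 3 and 3 for non-TG control, and 3 and 2 for both LRRK2 KO and WT.

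The alpha subunit of a sodium channel forms the pore whose opening starts and carries the action potential, and the beta subunits, single-pass membrane proteins with an immunoglobulin-like domain, set its gating, its number at the surface and its place in the membrane. *Scn8a* encodes the main channel of the axon initial segment and nodes of Ranvier in mature neurons, *Scn2a1* a channel of excitatory and spiny neurons and of unmyelinated axons, and *Scn3a* a channel best known from the developing brain. The spiny neurons that make up most of the striatum depend on these channels for firing and express *Scn4b* strongly.

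The deposited value of a transcript in a group is a mean of normalized reads in the coding sequence (CDS), scaled separately in each table. Translation efficiency (TE) is the ratio of the footprinting to the RNA-Seq mean and is given as log2, and differences in TE are in log2 units between genotype and control. From 10 of the 12 columns of means, each of which resolved as a mean of 2 libraries, normalized reads per library were recovered. The columns of non-TG control in the GS TG table did not resolve, so the controls of that comparison are given as means only. In the CDS of the resolved transcripts, the footprinting libraries of the transgenic tables held 7448887 to 18605871 reads and those of the knockout cohort between 2865022 and 6040916, and the RNA-Seq libraries held 3126208 to 14468181 reads. Where a pair of values follows, the first is from the shallower library of the group, the library with fewer reads. A transcript counts as past the fold threshold when its log2 change is at least 0.5 in size, and as past the *z* cutoff when its TE difference lies 1.5 SD or more above or below the mean over all transcripts of the table.

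*Lrrk2* served as a check of the genotypes. In the GS/DA TG table it had 1224 and 1445 normalized footprinting reads in non-TG control and 4766 and 7267 in GS/DA TG. In the GS TG libraries it had 7052 and 3320, against a control mean of 2524. In the knockout table it had 690.1 and 400.3 in the WT libraries and 149.7 and 102 in the LRRK2 KO libraries. In footprinting the libraries of each genotype lay on the labelled side of their control, with log2 changes of 1.04, 2.17 and -2.12 in GS TG, GS/DA TG and LRRK2 KO. Against the control libraries recovered from the GS/DA TG table, on a joint scale described below, the limma change of *Lrrk2* in GS TG was 2.19 ± 0.33 (SE). In RNA-Seq *Lrrk2* had 560.2 and 5233 reads in non-TG control and 5038 and 404 in GS/DA TG, and 733 and 1278 in WT and 270.0 and 423 in LRRK2 KO. The GS TG libraries had 214 and 3549.6 RNA-Seq reads against a control mean of 2105. RNA-Seq thus did not place the libraries of either transgenic genotype on the labelled side, while those of LRRK2 KO lay below both WT libraries. The control mean of *Lrrk2* in footprinting differed between the transgenic tables, 2524 against 1335, while every listed sodium channel gene had the lower control footprinting mean in the GS TG table. The tables do not say which control libraries each column holds.

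Markers of the tissue were read as lists. All 9 of 9 markers of striatal spiny neurons were listed, with *Ppp1r1b*, a phosphoprotein of dopamine signalling, the most abundant. Their summed footprinting means were 104441 in non-TG control and 96552 in GS TG, 140104 in non-TG control and 112529 in GS/DA TG, and 30002 in WT and 31119 in LRRK2 KO. Markers of cortical projection neurons were far lower, but in the GS/DA TG comparison all 3 of the 6 that are listed were past the threshold upwards in both assays. Summed over these 3 genes, of which the vesicular glutamate transporter gene *Slc17a7* was the most abundant, the footprinting reads were 1056 and 1630 in the non-TG control libraries and 2574 and 4104 in the GS/DA TG libraries. In RNA-Seq the same sums were 1965 and 915 against 2408 and 4030, and in the GS TG footprinting libraries 2302 and 431, around a control mean of 1612. The GS TG RNA-Seq libraries had 732 and 1410.3, both below the control mean of 1851, and *Slc17a7* was past the threshold downwards there (-0.92), opposite to GS/DA TG, and upwards in TE (0.68). In the knockout cohort, where 6 of 6 are listed, the summed footprinting means were 2585 in WT and 2416 in LRRK2 KO, and the summed RNA-Seq means 3958 and 3294, with *Tbr1* past the threshold in RNA-Seq (-0.80) and TE (0.87). Among the spiny markers, *Drd1a* and *Penk* had footprinting changes of -0.50 and -0.53 in GS/DA TG, and *Tac1* had a TE difference of 0.56 in LRRK2 KO. In bulk tissue, fewer cells of a type and less RNA per cell cannot be told apart, and the part of these markers in the sodium channel values was not tested.

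For the other cell types, summed footprinting means of 8 of 8 interneuron markers (most abundant *Gad1*) were 22394 and 22192 in the GS TG comparison, control first, 28999 and 27588 in that of GS/DA TG and 7502 and 7684 in that of LRRK2 KO. For 6 of 6 astrocyte markers (*Aldoc*) they were 29392 and 30801, 36650.3 and 38854, and 7404 and 7319. Those of 5 of 5 microglia markers (*Csf1r*) were 2582 and 2732, 3155 and 3441, and 359 and 413. None of the genes in these lists was past the threshold in footprinting. In RNA-Seq, *Kcnc2* (0.57) was past it in GS/DA TG and *Slc1a2* (-0.67), *C1qb* (0.73) and *C1qa* (0.54) in LRRK2 KO. In TE, *Aqp4* (0.52) was past it in GS TG and *Slc1a2* (0.79) and *C1qb* (-0.73) in LRRK2 KO.

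On the NCBIM37 (mm9) assembly the alpha subunit genes *Scn3a* (chr2:65295175-65405684, minus strand), *Scn2a1* (chr2:65458914-65605504, plus) and the unlisted *Scn1a* (chr2:66108838-66278897, minus) lie in a cluster, and *Scn8a* lies apart (chr15:100763860-100876360, plus) on the chromosome that also carries *Lrrk2*. The beta subunit genes share a chromosome: *Scn3b* (chr9:40076801-40099203, plus), *Scn2b* (chr9:44925959-44938153, plus) and, beside *Scn2b*, the unlisted *Scn4b* (chr9:44946520-44962235, plus). The coding exons of *Scn2a1*, *Scn3a* and *Scn8a* span 6110, 6123 and 6125 bases, and those of *Scn2b* and *Scn3b* 645 bases each, against a median of 1504.5 over the transcripts of the transgenic tables. GC content of the coding exons was 46.3% in *Scn2a1* and 47.2% in *Scn3a*, where 15.6% and 19.7% of transcripts lay lower, 51.3% in *Scn3b*, 52.8% in *Scn8a* and 55.2% in *Scn2b*, against a median of 52.9%. The table describes the *Scn2a1* transcript as a fragment, so its level per length may be understated.

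The alpha subunit genes also share sequence at the scale of a footprint. With at most 1 mismatch allowed, 29.4% of the 30-base windows of the *Scn2a1* CDS occur in another alpha subunit gene, and 21.1% of the windows occur in *Scn3a*. For *Scn3a* the share is 29.0% and for *Scn8a* it is 7.25%. A read from such a window matches more than 1 gene, and how such reads were assigned was not tested.

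Libraries of 1 group differed in ways that touch these genes, most of all in RNA-Seq of the transgenic cohort. *Scn2a1* had 408 and 2088 normalized RNA-Seq reads in the non-TG control libraries, 2909 and 259.5 in the GS/DA TG libraries and 155 and 1814 in the GS TG libraries. *Scn3a* had 547 and 1949, 2537 and 359, and 209 and 1553 in the same order. In each group, 1 library was thus low and 1 high in both genes, by 5.02-fold in non-TG control and 10.8-fold in GS/DA TG for *Scn2a1* (ratios of reads plus 10), and the genotypes overlapped. The footprinting libraries of these groups differed by 1.09-fold, 1.04-fold and 1.13-fold in *Scn2a1*.

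This spread went with base composition across transcripts. The log2 ratio of the deeper to the shallower RNA-Seq library correlated with CDS GC content at r = -0.759 over 8273 transcripts in non-TG control, 0.785 over 8262 in GS/DA TG and -0.767 over 8293 in GS TG, where the transcripts share the libraries and are not independent. In non-TG control the median ratio was 1.52 in the fifth of transcripts with the lowest GC content and -1.44 in the highest. The ratios of *Scn2a1* (2.33) and *Scn3a* (1.81) lay beyond the trend at their GC content (1.22 and 1.06), whereas *Scn3b* (0.00) lay below its own (0.29). *Scn8a* (0.37) lay above a trend of 0.00. *Scn2b* went against the trend, at 0.71 where the trend was -0.53, and likewise at -0.56 against 0.62 in GS/DA TG and 0.61 against -0.61 in GS TG. The part of base composition and of cell types in this spread was not tested.

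**Figure D1:**
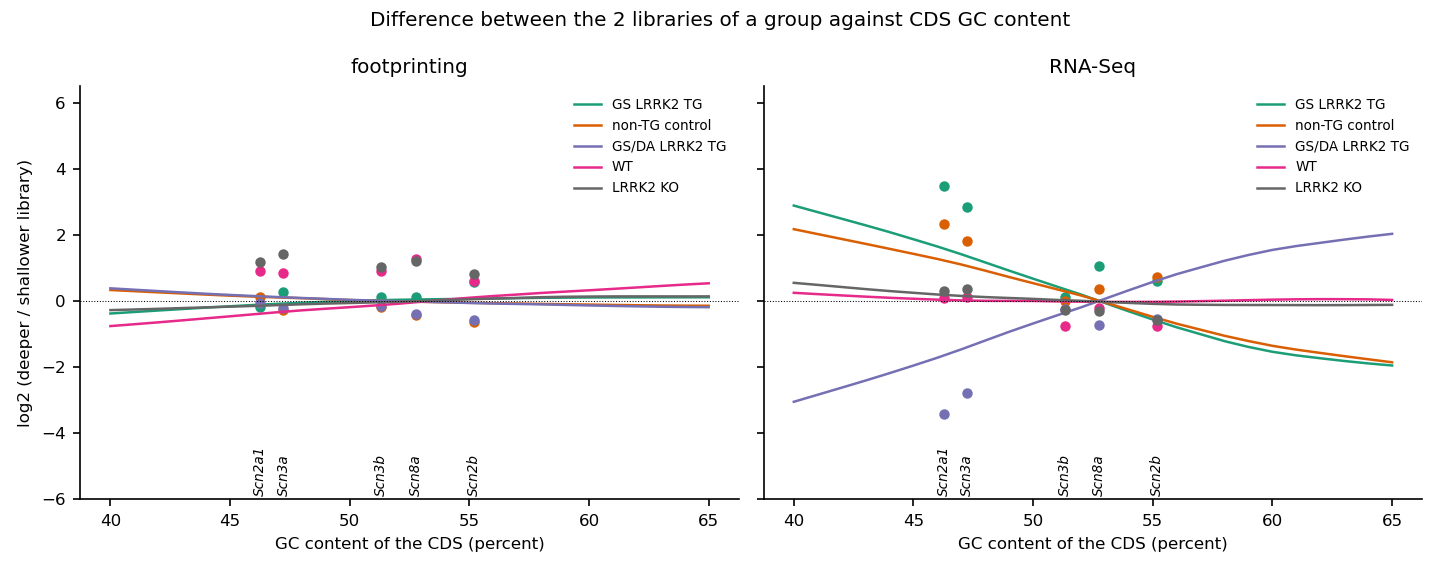
Log2 ratio of normalized reads between the deeper and the shallower library of a group (vertical axis) against the GC content of the CDS in percent (horizontal axis), for footprinting (left) and RNA-Seq (right). Lines are smoothed trends over all transcripts and points are the 5 listed sodium channel genes, in the colour of their group; in RNA-Seq of the transgenic cohort *Scn2a1* and *Scn3a* lie farthest from 0, at 3.46 and 2.84 in GS TG.

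In the knockout cohort the libraries of a group differed in both assays. All 5 listed sodium channel genes had more normalized footprinting reads in the deeper than in the shallower library, by 1.53-fold (*Scn2b*) to 2.41-fold (*Scn8a*) in WT and 1.76-fold (*Scn2b*) to 2.67-fold (*Scn3a*) in LRRK2 KO. In RNA-Seq *Scn2b* and *Scn3b* differed by 1.68-fold and 1.71-fold in WT, with more reads in the shallower library. From the shallower to the deeper footprinting library the summed spiny neuron markers went from 25059.6 to 34944 in WT and from 25069 to 37169 in LRRK2 KO. Those of astrocytes went from 5031 to 9778 and from 4444 to 10194, those of microglia from 87.9 to 629 and from 99.3 to 727, and those of interneurons from 7452 to 7551 and from 7341 to 8028. The cortical markers went from 2079.8 to 3090.03 and from 2288 to 2543. In RNA-Seq each of these sums was lower in the deeper library of both genotypes. The spiny neuron markers went from 51642 to 36910 in WT and from 54226 to 38839 in LRRK2 KO, and those of microglia from 992 to 402 and from 1351 to 417. Whether these movements are linked was not tested.

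In control striatum the beta subunits were the more abundant per length of annotated CDS. *Scn2b*, whose product joins alpha subunits through a disulfide bond, had 5500.3 normalized footprinting reads per kb in non-TG control (GS/DA TG table) and 1366 in WT, and 94.1% and 94.3% of transcripts lay lower. *Scn3b*, whose product binds alpha subunits without such a bond, had 1696 and 281 per kb, and *Scn8a* had 419 and 116. *Scn3a* had 273 and 56.8 and *Scn2a1* 247 and 58.6, so the order of this last pair differed between the cohorts. It also differed between non-TG control libraries, where *Scn2a1* had 1447 and 1573 and *Scn3a* 1834 and 1512 footprinting reads. The annotated CDS of the 2 genes are nearly equal in length, and over these the neighbours did not differ beyond their spread. The listed *Scn2a1* transcript is described as a fragment, however, so its level per kb may be understated and its place in the order is not settled. *Scn8a*, *Scn3b* and *Scn2b* followed each other upwards in every resolved footprinting library when scaled by length. RNA-Seq gave 4882, 791, 412, 204 and 204 reads per kb for *Scn2b*, *Scn3b*, *Scn8a*, *Scn3a* and *Scn2a1* in non-TG control and 1538, 362, 252, 104 and 107 in WT.

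Of the 5 genes, *Scn3b* had the highest TE in the transgenic cohort. Its log2 TE was 1.10 in non-TG control, above 92.2% of transcripts, and ranged from 1.01 to 1.19 over the pairings of a footprinting with an RNA-Seq library. *Scn3a*, *Scn2a1*, *Scn2b* and *Scn8a* had 0.42, 0.27, 0.17 and 0.03. For *Scn2a1* the pairings ranged from -0.53 to 1.95 and for *Scn3a* from -0.37 to 1.74, both across the range of *Scn3b*. In WT mice the log2 TE of *Scn3b* was -0.36 and that of *Scn2b* -0.17, both above those of *Scn2a1* (-0.87), *Scn3a* (-0.88) and *Scn8a* (-1.12), and the pairings of *Scn3b* ranged from -1.26 to 0.49.

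**Figure D2:**
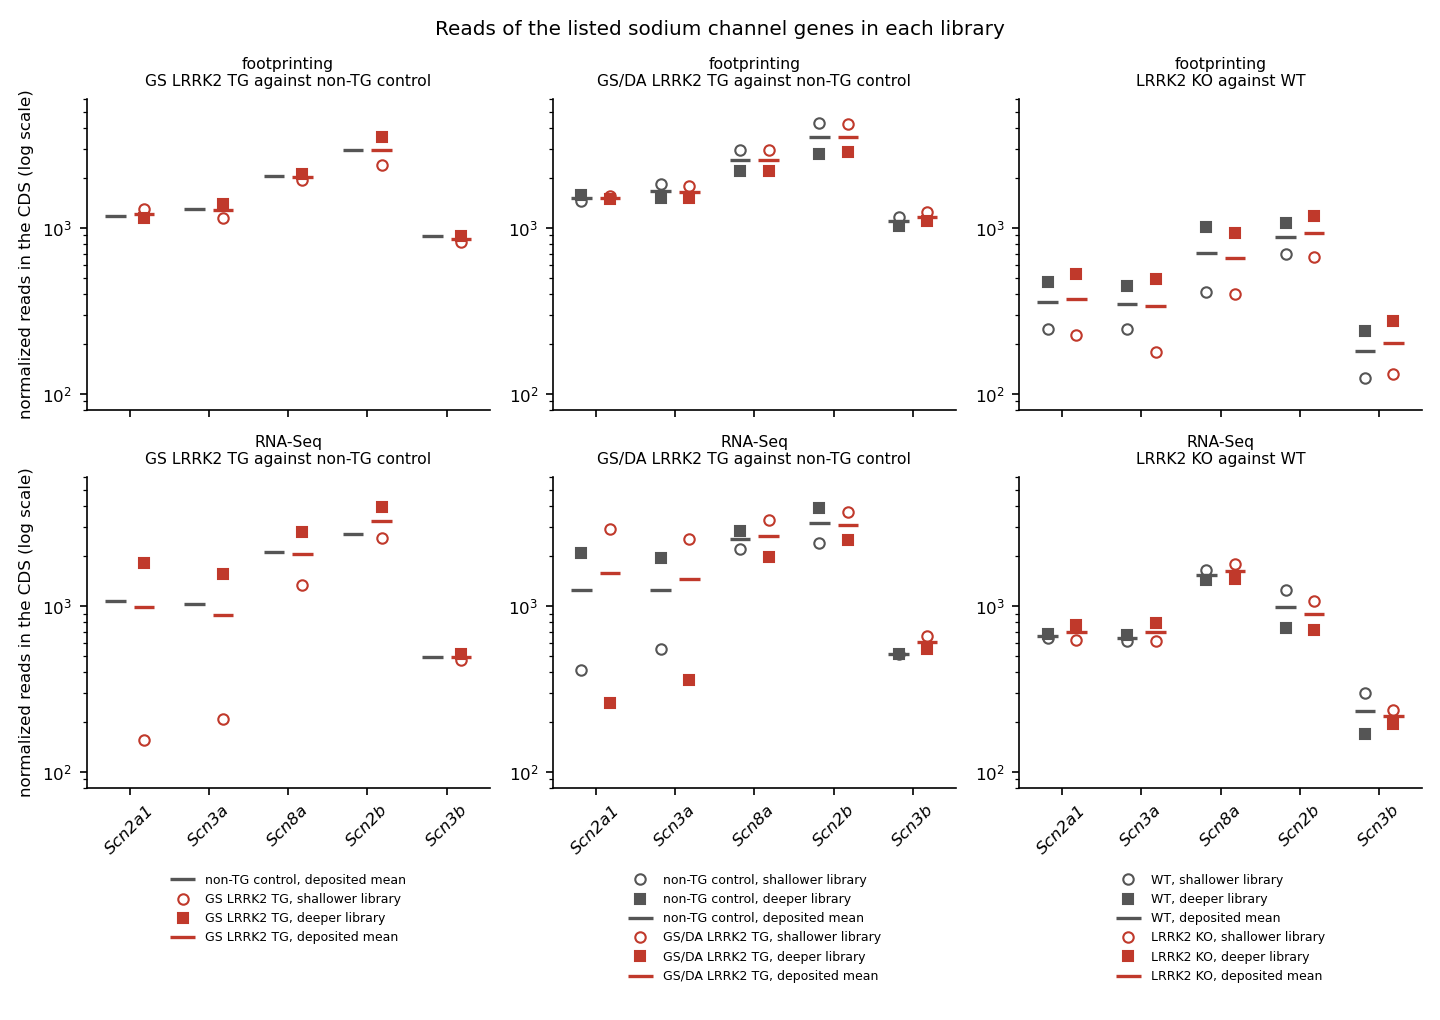
Normalized reads in the CDS on a log axis (vertical) for the 5 listed sodium channel genes (horizontal) in each recovered library, with footprinting above and RNA-Seq below and 1 column of panels per comparison. Circles are shallower and squares deeper libraries, bars are the deposited means, grey is control and red the genotype; in RNA-Seq of the transgenic cohort the libraries of *Scn2a1* and *Scn3a* lie far apart within a group, while their footprinting libraries lie close together.

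The comparison of GS TG with non-TG control asks what the kinase-active transgene does. Footprints of the alpha subunits lay close to control: *Scn2a1* had 1295 and 1141 reads against a control mean of 1179.7, *Scn3a* 1154 and 1402 against 1306, and *Scn8a* 1949 and 2123 against 2043. The control mean thus fell between the GS TG libraries in all 3 alpha subunits. *Scn2b* had 2386 and 3546.5 footprinting reads against 2931, and *Scn3b* had 825 and 896 against 893. Here too the control mean lay between the libraries. As log2 changes of the means, the 5 genes ranged from -0.05 (*Scn3b*) to 0.05 (*Scn2a1*), with a median of -0.00 against 0.00 over all transcripts, whose SD was 0.15.

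RNA-Seq of GS TG put *Scn8a* at 1329 and 2787 reads against a control mean of 2106, *Scn2b* at 2583 and 3941 against 2703, and *Scn3b* at 475 and 516 against 493. *Scn2a1* and *Scn3a*, with the libraries given above, had control means of 1068 and 1034. The control mean again lay between the libraries of every listed gene. *Scn2b* had the highest change of the means (0.27, with 96.7% of transcripts lower) and *Scn3a* the lowest (-0.23), and the median of the 5 was -0.03 against -0.02 over all transcripts. TE differences were 0.16 for *Scn2a1*, 0.20 for *Scn3a*, 0.03 for *Scn8a*, -0.25 for *Scn2b* and -0.06 for *Scn3b*. Their *z* scores were 0.516, 0.687, -0.107, -1.41 and -0.514, so *Scn2b* came nearest to a cutoff, on the low side. Past the threshold were 0 of 5 in footprinting, where 0.338% of all transcripts were (0.14% upwards and 0.198% downwards), 0 of 5 in RNA-Seq (2.95%; 0.233% and 2.72%) and 0 of 5 in TE (3.58%; 3.32% and 0.257%). Past the *z* cutoffs were 0 of 5 upwards (8.01% of transcripts) and 0 of 5 downwards (3.91%).

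No test could be made within that table. As an alternative chosen after the data were seen, the GS TG libraries were scaled together with the control libraries recovered from the GS/DA TG table and fitted with limma, 2 libraries against 2 in each assay. On this joint scale *Scn2a1* had 1093 and 1185 footprinting reads in control and 1229 and 1086 in GS TG, and *Scn3a* 1385 and 1139 against 1096 and 1335. *Scn8a* had 2225 and 1653 footprinting reads in control and 1851 and 2021 in GS TG, *Scn2b* 3265 and 2089.6 against 2266 and 3376.5, and *Scn3b* 878 and 773 against 784 and 853. In footprinting the genotypes overlapped in all 5 genes. In RNA-Seq on the joint scale *Scn3b* had 471 and 478 reads in control and 493 and 534.5 in GS TG. Both GS TG libraries of *Scn3b* thus lay above both control libraries, and the other listed genes overlapped. These control libraries also serve the GS/DA TG comparison, and the share of all transcripts with this pattern is not given here. Footprinting changes from limma were 0.02 ± 0.14 (SE) for *Scn2a1*, -0.05 ± 0.16 for *Scn3a*, 0.01 ± 0.17 for *Scn8a*, 0.08 ± 0.27 for *Scn2b* and -0.01 ± 0.14 for *Scn3b*. In RNA-Seq the SE was 1.53 for *Scn2a1* and 1.26 for *Scn3a*, around changes of -0.62 and -0.68, and the changes of *Scn8a*, *Scn2b* and *Scn3b* were -0.22 ± 0.56, 0.22 ± 0.50 and 0.11 ± 0.44. With limma 0 of 8426 transcripts passed an adjusted p of 0.05 in footprinting, 0 of 8496 in RNA-Seq and 0 of 8389 in TE, and 86 (1.02%), 0 and 0 passed an unadjusted p of 0.05. Of the sodium channel genes, 0 of 5 passed an adjusted (0% of transcripts) or an unadjusted p of 0.05.

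The comparison of GS/DA TG with non-TG control shows the transgene without kinase activity. *Scn2a1* footprints were 1447 and 1573 in control and 1548 and 1491 in GS/DA TG, *Scn3a* 1834 and 1512 against 1779.8 and 1517, and *Scn8a* 2945 and 2194 against 2943 and 2216. In *Scn3a* and *Scn8a* the shallower library was the higher in both genotypes, and the genotypes overlapped in all 3 alpha subunits. *Scn2b* footprints were 4321 and 2774 in control and 4248 and 2851 in GS/DA TG, and *Scn3b* 1162 and 1026 against 1241 and 1101. Both beta subunits were higher in the shallower library of either genotype, and the genotypes overlapped. The limma changes with SE, 2 libraries against 2, were 0.01 ± 0.11 for *Scn2a1*, -0.02 ± 0.15 for *Scn3a*, 0.01 ± 0.20 for *Scn8a*, 0.01 ± 0.27 for *Scn2b* and 0.10 ± 0.13 for *Scn3b*. The median change of the means was 0.01, against -0.01 over all transcripts.

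In RNA-Seq of the same mice, *Scn8a* had 2201 and 2841 reads in control and 3294 and 1961 in GS/DA TG, and *Scn2b* 2384 and 3914 against 3673 and 2496. These overlapped, as did *Scn2a1* and *Scn3a*. *Scn3b* had 510.3 and 510.1 in control and 662 and 551 in GS/DA TG, and was the 1 of 5 genes with both libraries above both control libraries, which held for 1.78% of all transcripts, with 0 of 5 wholly below (1.6%). In footprinting 0 of 5 lay wholly above (12% of transcripts) and 0 of 5 wholly below (12.2%). The limma change of *Scn3b* in RNA-Seq was 0.24 ± 0.46, with an adjusted p of 1.00, which was 1.00 under every alternative run. The means put *Scn2a1* at 0.34, *Scn3a* at 0.21, *Scn8a* at 0.06, *Scn2b* at -0.03 and *Scn3b* at 0.25, a median of 0.21 against 0.06 over all transcripts. On the log2 scale of limma, however, *Scn2a1* was at -0.08 ± 1.52 and *Scn3a* at -0.11 ± 1.25, so their sign depended on whether reads or logarithms were averaged.

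TE differences from the means were -0.33 in *Scn2a1*, -0.23 in *Scn3a*, -0.05 in *Scn8a*, 0.03 in *Scn2b* and -0.15 in *Scn3b*, a median of -0.15 against -0.05 over all transcripts. The *z* score of *Scn2a1*, -1.495, lay just inside the lower cutoff, and it passed the cutoff at -2.04 with a median and scaled MAD and at -1.52 with a pseudocount of 10. Without the shallower GS/DA TG RNA-Seq library its TE difference was 2.28 and that of *Scn3a* 1.78. The log2 TE of *Scn2a1* over library pairings ranged from -0.53 to 1.95 in control and -0.96 to 2.58 in GS/DA TG, and that of *Scn3b* from 1.01 to 1.19 and 0.73 to 1.17, so the genotypes overlapped in both. Past the threshold were 0 of 5 in footprinting (0.816% of transcripts, 0.49% upwards and 0.326% downwards), 0 of 5 in RNA-Seq (2.72%; 2.46% and 0.257%) and 0 of 5 in TE (2.38%; 0.07% and 2.31%). Past the *z* cutoffs were 0 of 5 upwards (3.65%) and 0 of 5 downwards (7.36%). In limma 0 of 8404 transcripts passed an adjusted p of 0.05 in footprinting, 0 of 8474 in RNA-Seq and 0 of 8367 in TE (0% each). At an unadjusted p under 0.05 there were 142 (1.69%), 0 and 0, with 0 of 5 sodium channel genes in each. An exact permutation of 2 libraries against 2 cannot give a p below 0.333.

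**Figure D3:**
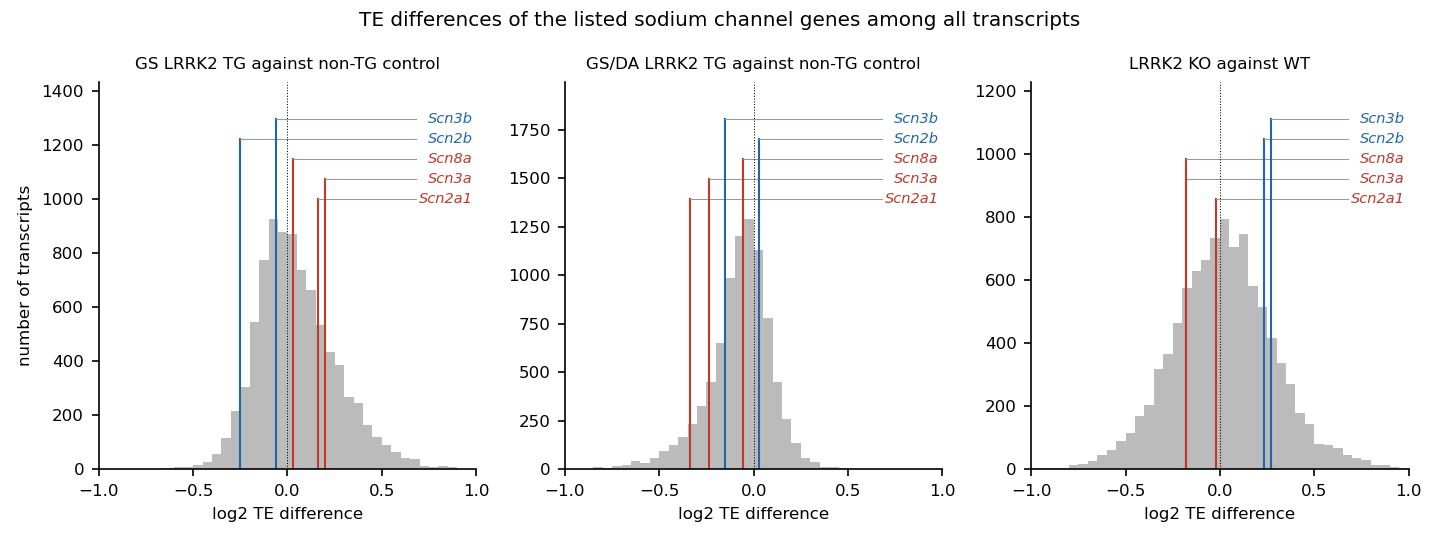
Number of transcripts (vertical axis) by log2 TE difference between genotype and control (horizontal axis) in each comparison, as grey bars, with the 5 listed sodium channel genes as lines, alpha subunits in red and beta subunits in blue. All 5 lie within 0.5 of 0 in every panel; in LRRK2 KO the beta subunits lie above 0 (0.23 and 0.27) and the alpha subunits below it (-0.02 to -0.18).

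The comparison of LRRK2 KO with WT asks what loss of the kinase does. *Scn2a1* had 245 and 471 footprinting reads in WT and 225 and 524 in LRRK2 KO, *Scn3a* 246 and 449 against 179 and 494, and *Scn8a* 412 and 1008 against 397 and 926. Within each genotype the deeper library was the higher one, and the genotypes overlapped in all 3. *Scn2b* had 695 and 1067 footprinting reads against 669 and 1187, and *Scn3b* 124 and 239 against 131 and 275. The beta subunits too were split by library and overlapped. Log2 changes of the means ran from -0.10 (*Scn8a*) to 0.16 (*Scn3b*), with a median of 0.06 against 0.02 over all transcripts.

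RNA-Seq reads in WT and LRRK2 KO were 637 and 674 against 622 and 767 for *Scn2a1*, 612 and 664 against 613 and 785 for *Scn3a*, and 1658 and 1429.9 against 1800.1 and 1462 for *Scn8a*. Libraries lay closer together here than in the transgenic cohort, by at most 1.28-fold in these 3 genes. *Scn2b* had 1247 and 738 against 1066 and 713, and *Scn3b* 297 and 169.7 against 237 and 195. In both beta subunits the shallower library was the higher, and all 5 genes overlapped between genotypes. The changes of the means were 0.08 for *Scn2a1*, 0.13 for *Scn3a*, 0.08 for *Scn8a*, -0.16 for *Scn2b* and -0.11 for *Scn3b*, a median of 0.08 against 0.01 over all transcripts. The alpha subunits were thus at positive and the beta subunits at negative values, none of them past the threshold.

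In TE the beta subunits had the higher differences, 0.23 for *Scn2b* and 0.27 for *Scn3b*, and the alpha subunits the lower, -0.02 for *Scn2a1*, -0.18 for *Scn3a* and -0.18 for *Scn8a*. The limma estimates were 0.18 ± 0.58, 0.20 ± 0.65, -0.06 ± 0.63, -0.27 ± 0.68 and -0.16 ± 0.72 in that order, so each SE exceeded its estimate. Without the deeper LRRK2 KO footprinting library the footprinting changes of *Scn3a*, *Scn8a* and *Scn2a1* were -0.96, -0.84 and -0.67 and their TE differences -1.09, -0.92 and -0.75. The counts that follow hold for all libraries together. Past the threshold were 0 of 5 in footprinting (2.07% of transcripts, 1% upwards and 1.07% downwards), 0 of 5 in RNA-Seq (3.18%; 0.669% and 2.51%) and 0 of 5 in TE (6.81%; 4.06% and 2.75%). Past the *z* cutoffs were 0 of 5 upwards (6.23%) and 0 of 5 downwards (6.02%). Wholly above or below the WT libraries were 0 and 0 of 5 in footprinting (6.22% and 6.41%) and 0 and 0 of 5 in RNA-Seq (7.04% and 7.03%). In limma 0 of 9531, 9530 and 9527 transcripts passed an adjusted p of 0.05 in footprinting, RNA-Seq and TE (0% each). At an unadjusted p under 0.05 there were 7 (0.0734%), 7 (0.0735%) and 2 (0.021%), with 0 of 5 sodium channel genes in each.

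Libraries of control and genotype could be paired by the difference they share across transcripts, with r = 0.739 for footprinting and -0.974 for RNA-Seq in the GS/DA TG comparison and 0.835 and 0.732 in that of LRRK2 KO. Within the pairs of the GS/DA TG comparison *Scn3b* had footprinting changes of 0.09 and 0.10 and RNA-Seq changes of 0.11 and 0.38. The other listed sodium channel genes changed sign between the pairs in both assays. *Scn2a1* had RNA-Seq changes of -0.65 and 0.48 and *Scn3a* of -0.61 and 0.38. In the LRRK2 KO comparison *Scn8a* (-0.05 and -0.12) and *Scn3b* (0.09 and 0.20) kept a sign in footprinting, and *Scn3a* (0.00 and 0.24), *Scn8a* (0.12 and 0.03) and *Scn2b* (-0.23 and -0.05) in RNA-Seq. The share of all transcripts that keep a sign in both pairs is not given here, so a kept sign is not read as a result about these genes. With the pairs as a block in limma, the adjusted p of *Scn3b* in footprinting of GS/DA TG was 0.545, and over all alternatives run it ranged from 0.545 to 1.00.

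The listed genes differ widely in the predicted folding energy of their 5′UTR, which the tables give in kcal/mol, with lower values for more stable structure. *Scn3b* (-328) and *Scn3a* (-313) lie low, with 7.85% and 8.63% of transcripts below them, and *Scn8a* (-41.8), *Scn2b* (-16.9) and *Scn2a1* (-14.3) lie high, with 74.0%, 89.9% and 91.4% below. Each class holds an alpha and a beta subunit. The 2 genes with the most stable predicted 5′UTR, *Scn3b* and *Scn3a*, had TE differences of -0.06 and 0.20 in GS TG, -0.15 and -0.23 in GS/DA TG and 0.27 and -0.18 in LRRK2 KO. Their signs thus differed from each other in GS TG and in LRRK2 KO.

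Likeness among the genes was measured as the Euclidean distance over their 6 log2 changes, footprinting and RNA-Seq in the 3 comparisons. *Scn2a1* and *Scn3a* were the closest of the listed sodium channel genes (0.227) and *Scn3a* and *Scn2b* the farthest apart (0.643). *Scn2a1* and *Scn3a* share sequence and their RNA-Seq libraries split alike, and the part of either in this closeness was not tested. Among 1675 transcripts with every group mean at 500 or more, *Pds5b* (0.0958) and *Herc1* (0.101) were nearest to *Scn2a1*, where the median distance was 0.453. *Scn2a1*, *Scn3a* and *Scn3b* did not meet this filter themselves. Nearest to *Scn3a* were *Zmynd11* (0.107) and *Sf3b1* (0.129), and to *Scn3b* *Dgkh* (0.133) and *Fry* (0.146). Nearest to *Scn8a* were *Mgrn1* (0.0665) and the transcript uc007yoj.1 (0.0733), whose symbol had been altered to a date in the table. *Stip1*, a co-chaperone (0.0993), and *Bsg*, a membrane glycoprotein (0.111), were nearest to *Scn2b*.

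Beside these genes stand *Scn9a*, the alpha subunit best known from pain-sensing neurons, and *Scnm1*, a splicing factor named for its effect on *Scn8a*. Neither was past the threshold in any comparison or assay. *Scn9a* footprints per kb were 80.3 in non-TG control and 16.4 in WT, below those of all 5 genes above. Its TE differences were 0.38, -0.44 and -0.46 in GS TG, GS/DA TG and LRRK2 KO, with *z* scores of 1.53, -2.11 and -1.75. The score in GS TG was 1.481 with a pseudocount of 10, inside the cutoff. Its log2 TE in non-TG control, 1.25, was above that of *Scn3b*. *Scnm1* had its largest change in footprinting of GS TG (0.43, means of 317 and 428). A further transcript, AK143234 (uc008jwn.2), was noticed after its values were seen, because the table describes it as a fragment of a sodium channel alpha subunit. Its footprinting means, 3387 and 3364, 4321 and 4352, and 976 and 1005 in the 3 comparisons, control first, were above those of *Scn2a1*, and it matched no coding gene of the annotation.

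Partners that anchor sodium channels, modulate them or act beside them in the axon initial segment were counted from a list of 29 genes, of which 22 are listed. Not listed were *Ank3*, *Sptbn4*, *Sptbn1*, *Sptan1*, *Fgf11*, *Kcnq3* and *Ptprb*, so the ankyrin and spectrin of the initial segment were not analysed here. In GS TG 0 of 22 were past the threshold in footprinting (0.338% of all transcripts), RNA-Seq (2.95%) or TE (3.58%), and in GS/DA TG likewise 0 of 22 (0.816%, 2.72% and 2.38%). The extremes in TE were *Fgf13*, an intracellular channel-binding factor (0.29), and *Calm3*, a calmodulin gene (-0.31), in GS TG. In GS/DA TG they were *Unc79*, an accessory subunit of the sodium leak channel (0.30), and *Fgf12*, another channel-binding factor (-0.48). In LRRK2 KO 2 of 22 were past the threshold in TE, where 6.81% of all transcripts were, both upwards (4.06%): *Cntnap2*, an adhesion molecule beside the nodes (0.59), and *Fgf12* (0.57), while *Unc79* was lowest (-0.30). On the log2 scale of limma both lay under 0.5, at 0.29 ± 1.17 (SE) and 0.496 ± 0.47, with 2 libraries against 2 in each assay. Median TE differences of the 22 were 0.09, -0.11 and 0.19, against 0.02, -0.05 and 0.02 over all transcripts. Of the partners, limma fitted 19 in the GS/DA TG comparison and 22 in that of LRRK2 KO, and 0 passed an adjusted p of 0.05 or an unadjusted p of 0.05 in any assay.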

How the data were processed

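Footprints and RNA came from the samples grouped above. Per the submitters' processing notes and the paper, reads were called with CASAVA 1.8, aligned to mm9 with TopHat2 2.0.11 and Bowtie2 2.2.2 and counted in the CDS, and the authors deposited for each group the mean over its libraries after scaling with DESeq 1.20, a signal without an SD. The authors also deposited log2 TE, TE differences and *z* scores, which were not used, and the 5′UTR folding energy in kcal/mol, which was used as deposited. The sodium channel genes and all gene lists were chosen with earlier results of these data known.

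TE, changes and *z* scores were computed from the deposited means with a pseudocount of 0 over all transcripts. A mean of 2 libraries is the sum of their counts, each times a constant of its library, and from the 2 constants the reads of single libraries were recovered for 98.3% to 99.9% of the transcripts of 10 columns (at most 1.42% after a shift of the values); the method was tested on simulated data. Recovered libraries carry no replicate number. The labels list 3 libraries in some groups whose means resolved as 2. Log2 of the recovered normalized reads plus 10 was fitted with limma 3.58.1 (R 4.3.3, trended prior), with TE as the interaction of genotype and assay and Benjamini-Hochberg adjustment over all transcripts fitted. Transcripts were matched to the NCBIM37 annotation for CDS length and GC content (97.2% in the transgenic tables, 97.0% in the knockout table), with sequence windows of 30 bases. Python 3.11.15, pandas 2.3.3 and statsmodels 0.14.6 were used.

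Genes named are the members, *Lrrk2*, the 2 transcripts nearest to each member, and of the partner list and the other sodium channel genes those past 0.5 in a table or with the highest or lowest TE difference; *Scnm1* and the marker genes are named beside their lists, and not every gene or list computed is reported. Marker lists reported are those of spiny neurons, interneurons, cortical projection neurons, astrocytes and microglia. Alternatives were other pseudocounts, thresholds, scalings and filters, corrections for GC content and CDS length, leaving out each library, and pairs of libraries as a block.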

Additional observations from a re-analysis of the deposited data

How the results depend on the processing

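Members called by limma were 0 in every alternative run, of 5 fitted, or of 2 in LRRK2 KO with group means of at least 500. For GS TG no alternative to the joint fit was run. With a fold threshold of 0.3 in the GS/DA TG comparison, 1 of 5 passed in RNA-Seq (11.4% of all transcripts) and 1 of 5 in TE (10.2%), and with a *z* score from the median and scaled MAD (18.2%) or a pseudocount of 10 (10.9%), 1 of 5 passed the *z* cutoff, each time *Scn2a1*.

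Leaving out 1 library at a time, which assumes that a lone library varies like the other groups, left 0 of 5 past the fold threshold in footprinting of GS TG (1.61% to 5.41% of all transcripts) and GS/DA TG (1.47% to 2.65%) and in RNA-Seq of LRRK2 KO (8.70% to 29.3%). Elsewhere the counts depended on the library: 3 of 5 in RNA-Seq of GS TG without either library (47.5% and 56.2% of all transcripts), 0 to 3 in its TE (7.03% to 58.9%), 0 to 2 in RNA-Seq (41.7% to 56.7%) and 0 to 2 in TE (3.07% to 56.3%) of GS/DA TG, and 1 to 3 in footprinting (15.3% to 20.8%) and 0 to 4 in TE (12.1% to 30.7%) of LRRK2 KO. These counts and shares were added after seeing the data. The median footprinting change of the 5 genes lay between -0.11 and 0.055 in GS TG, between -0.15 and 0.19 in GS/DA TG and between -0.67 and 0.61 in LRRK2 KO. The median RNA-Seq change lay between -0.66 and 0.54, between -0.36 and 0.39 and between -0.078 and 0.19, and the median TE difference between -0.53 and 0.66, between -0.38 and 0.37 and between -0.75 and 0.57. Each of these 9 ranges spans 0. Transcripts called in footprinting of GS/DA TG numbered 2 to 38, against 0 with all libraries. The cause was not tested.

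With pairs of libraries as a replicate block, limma called 157 transcripts in footprinting and 1 in RNA-Seq of GS/DA TG, and 10 and 12 in those of LRRK2 KO, against 0 without the block, and 0 in TE. No sodium channel gene was among them, and the cause was not tested.

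Among single genes, *Scn2a1* and *Scn3a* moved most. Without the deeper GS TG RNA-Seq library their RNA-Seq changes were -2.78 and -2.31 and their TE differences 2.83 and 2.28. Without the shallower GS/DA TG RNA-Seq library the RNA-Seq changes went from 0.34 and 0.21 to -2.27 and -1.80, and the TE differences from -0.33 and -0.23 to 2.28 and 1.78, so 1 library decided the sign. Without the deeper WT footprinting library the footprinting change of *Scn3b* in LRRK2 KO was 0.71. Over single genes, 16 values moved by more than the spread between libraries and 502 did not, and over medians, counts and levels 37 moved and 258 did not. The use of control libraries from the GS/DA TG table for GS TG was chosen after seeing the data. Scaling by total reads, leaving out a control library and pairing could not be run for GS TG, because no single control library is known there. With a filter at means of 500, the LRRK2 KO table kept 2 of the 5 genes, so no median was given.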
